A study of Homo sapiens with 6 samples.

Results

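The genes described here are the protein-coding genes of human chromosome 19 whose symbol starts with ZNF or ZFP. The count tables held 252 of them, 85 on the short arm (19p) and 167 on the long arm (19q), on the GRCh37 build. A gene was kept for the comparison when its mean over the 6 libraries was 1 CPM or more, where CPM is the read count relative to library size, after TMM normalization. This left 188 genes, namely 57 on 19p (67.1%) and 131 on 19q (78.4%). The count tables listed 63677 identifiers in all, of which 14286 were tested, and each of the 188 kept genes was among these. The lowest kept genes were ZNF814 at 1.07 CPM and ZNF497 at 1.07 CPM, and the highest of the genes not kept were ZNF681 at 0.998 CPM and ZNF492 at 0.996 CPM.

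The libraries came from SW480, an established line from a human colorectal adenocarcinoma. The cells had been stably transduced with a lentiviral, doxycycline-inducible vector for GFP (the control) or for POU5F1B, a retrogene copy of the pluripotency gene POU5F1, and both groups received 1 µg/mL doxycycline for 72 h. Each group had 3 libraries of polyadenylated RNA, and the sources used here do not say whether these came from separate cultures or transductions, so p-values measure the spread between these libraries, which may be technical. The effect of doxycycline alone and of a level of POU5F1B below that of the vector cannot be read from these 2 groups.

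Most ZNF genes encode C2H2 zinc finger proteins, in which each finger folds around a zinc ion held by a pair of cysteines and a pair of histidines and reads a few bases of DNA. On chromosome 19 the genes lie in tandem clusters that grew by repeated duplication, and many of their proteins also carry a KRAB box. The KRAB box recruits TRIM28 (KAP1), which brings the histone methyltransferase SETDB1 and heterochromatin proteins to the bound site, and many of these proteins silence transposable elements, chiefly in early embryos and stem cells. The genes have much of their sequence in common, which bears on any count of uniquely mapped reads.

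The shared architecture is shown by the first finger of 3 genes, chosen because ZNF136 and ZNF780A had the smallest p-values among the lower genes and ZNF780B is the closest member to ZNF780A. The coding strand is printed 5′ to 3′ from GRCh37, with the codons of the zinc-binding cysteines and histidines in capitals. ZNF136 lies on the plus strand (chr19:12297701-12297763) and the other two on the minus strand (ZNF780A at chr19:40581788-40581850 and ZNF780B at chr19:40542205-40542267).

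ZNF136: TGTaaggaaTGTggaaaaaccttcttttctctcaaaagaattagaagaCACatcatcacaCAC

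ZNF780A: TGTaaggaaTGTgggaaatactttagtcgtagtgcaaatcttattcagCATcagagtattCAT

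ZNF780B: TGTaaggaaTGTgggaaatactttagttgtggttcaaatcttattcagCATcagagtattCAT

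The fingers of ZNF780A and ZNF780B differed at 3 of 63 bases. Over their whole coding sequences, of 1923 and 2499 bases, the pair were 72.5% identical by edit distance over the longer sequence. This measure counts the difference in length as mismatch, so it is not the identity of the part they have in common.

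The start sites of many of these genes lie in DNA rich in CpG, the dinucleotide at which human DNA is methylated. Below are the 150 bases upstream of the start site for both ZNF780 genes and for ZFP82, the named gene with the lowest fold change, from RefSeq on GRCh38.p14, each on the gene's own strand and with CG in capitals. All 3 lie on the minus strand, at chr19:40090944-40091093, chr19:40056232-40056381 and chr19:36418645-36418794 in that order.

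ZNF780A: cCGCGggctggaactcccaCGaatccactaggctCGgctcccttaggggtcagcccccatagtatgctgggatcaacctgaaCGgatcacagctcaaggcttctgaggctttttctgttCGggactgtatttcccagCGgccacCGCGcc

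ZNF780B: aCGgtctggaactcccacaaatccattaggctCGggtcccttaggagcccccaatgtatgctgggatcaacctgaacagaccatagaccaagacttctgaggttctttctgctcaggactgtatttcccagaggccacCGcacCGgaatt

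ZFP82: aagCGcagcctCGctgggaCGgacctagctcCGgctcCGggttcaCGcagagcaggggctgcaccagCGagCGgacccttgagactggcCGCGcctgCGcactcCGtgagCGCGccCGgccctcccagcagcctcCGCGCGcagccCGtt

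These stretches held 9, 4 and 19 CG in the same order. In the 300-base window from 250 bases before to 50 bases after the start, the 219 genes of the set found in the table of promoters had a median of 20 CG, against 14 over all 27305 promoters. The median was 21 for kept genes and 16.5 for the others.

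The libraries held between 10767947 and 12787637 counts, of which the zinc finger genes took between 0.156% and 0.245%, so that 3 counts were worth between 0.229 and 0.278 CPM. POU5F1B itself was at 0.505, 0.381 and 0.087 CPM in GFP replicates 1 to 3 and at 1182, 1056 and 121 CPM in POU5F1B replicates 1 to 3, high only where the labels say so and lowest of these in replicate 3. GFP replicate 3 stood apart from the other 5 libraries, and its deviation followed GC content: with all tested genes cut into 4 equal groups by GC content, the group with the lowest had a median of 0.48 (log2) above their own means in it. Of 11 markers of a colon epithelial line, 8 reached a mean of 1 CPM, keratins KRT8 and KRT18 among them, while CDX1, LGALS4 and CEACAM5 stayed below 1 CPM in every library. EPCAM was at 86.8, 89.4 and 519 CPM in GFP replicates 1 to 3 and between 252 and 331 CPM in the POU5F1B libraries. CDH1 (E-cadherin) was at 33.7, 30.2 and 72.7 CPM against 164, 159 and 98.3 CPM, groups that did not overlap, with a log2 fold change of 1.71 ± 0.36 (SE; adjusted p = 0.207, limma voom). VIL1 was highest in both replicate 3 libraries, at 211 and 111 CPM, as was CDH17, which was at 6.70 CPM in GFP replicate 3. The summed fibroblast markers ranged from 20.2 to 142 CPM in the GFP libraries and from 5.56 to 10.3 CPM in the POU5F1B libraries. Most of it was COL1A1, and COL3A1 was at 0 counts throughout. LUM had counts only in the replicate 3 libraries, at 2.96 CPM with GFP (beside 16.9 CPM for COL1A1) and 0.416 CPM with POU5F1B. The summed immune markers were at most 0.435 CPM and CDH5, the endothelial marker measured, at most 0.157 CPM. What part EPCAM, CDH1, VIL1, CDH17, COL1A1, LUM or GC content had in the values below was not tested, except where a value with GC content corrected is given.

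The kept genes were expressed at low levels, with a mean CPM from 1.07 to 97.1 and a median of 6.92 CPM. Because transcript lengths differ, levels were compared between genes per kb of exon, where the median was 1.36 CPM per kb. The highest level per kb was that of ZNF146 (OZF), a protein made almost wholly of fingers, at 23.4 CPM per kb. ZNF428 followed at 15.4 CPM per kb and ZFP36 at 13.4 CPM per kb. Without GFP replicate 3 the order turned, with ZNF428 at 15.3, ZFP36 at 13.9 and ZNF146 at 13.7 CPM per kb. ZFP36 (tristetraprolin) is in the set by its symbol only, since it binds RNA through CCCH fingers and not DNA through C2H2 fingers. On 19p the highest were ZNF317 at 10.2, ZNF358 at 3.72 and ZNF561 at 3.35 CPM per kb, so the top of 19p lay below the top of 19q.

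The level of ZNF146 rested on 1 library. It was at 45.3, 63.3 and 299 CPM in the GFP libraries and at 49.9, 77.0 and 47.8 CPM in the POU5F1B libraries, so that 5 of the 6 values lay together and GFP replicate 3 lay far above them. Its log2 fold change was -0.74 ± 0.70 (SE; adjusted p = 0.704, limma voom) and 0.06 without GFP replicate 3. By contrast ZNF317 was even across libraries, at 53.7, 45.3 and 59.8 CPM against 50.8, 47.4 and 53.4 CPM.

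Of the 252 genes, 64 were not kept. Among these, 28 had 0 counts in all 6 libraries, which allows a level of up to 0.278 CPM in the shallowest library, and 36 had counts but a mean below 1 CPM. Both counting rules and sequence could remove reads here: 11 of the 28 genes at 0 (39.3%) overlapped an exon of another gene, against 131 of the 224 with counts (58.5%), and the share of reads lost to multiple mapping was not measured. Genes with a near copy of similar length were kept less often: 66.7% of the 60 genes with a member at 80% coding identity or more were kept, against 77.4% of the other 190 (no test was made of this difference). Identity was again taken over the longer sequence, so genes with a near copy of unequal length can be among the 190.

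Runs of these genes with start sites at most 500 kb apart and at least 5 genes gave 10 clusters, numbered from the end of 19p to the end of 19q, which held 237 of the 252 genes. Clusters 1 to 4 lie on 19p and clusters 5 to 10 on 19q. In all but one of them at least 73.1% of the genes were kept. The exception was cluster 4, next to the centromere (19.8 to 24.3 Mb), with 19 of 37 genes kept (51.4%) and 8 at 0 counts. This cluster is known for primate-specific KRAB genes, among them ZNF91 and ZNF93, and its kept genes had a median of 0.656 CPM per kb, the lowest of the 10.

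**Figure D1:**
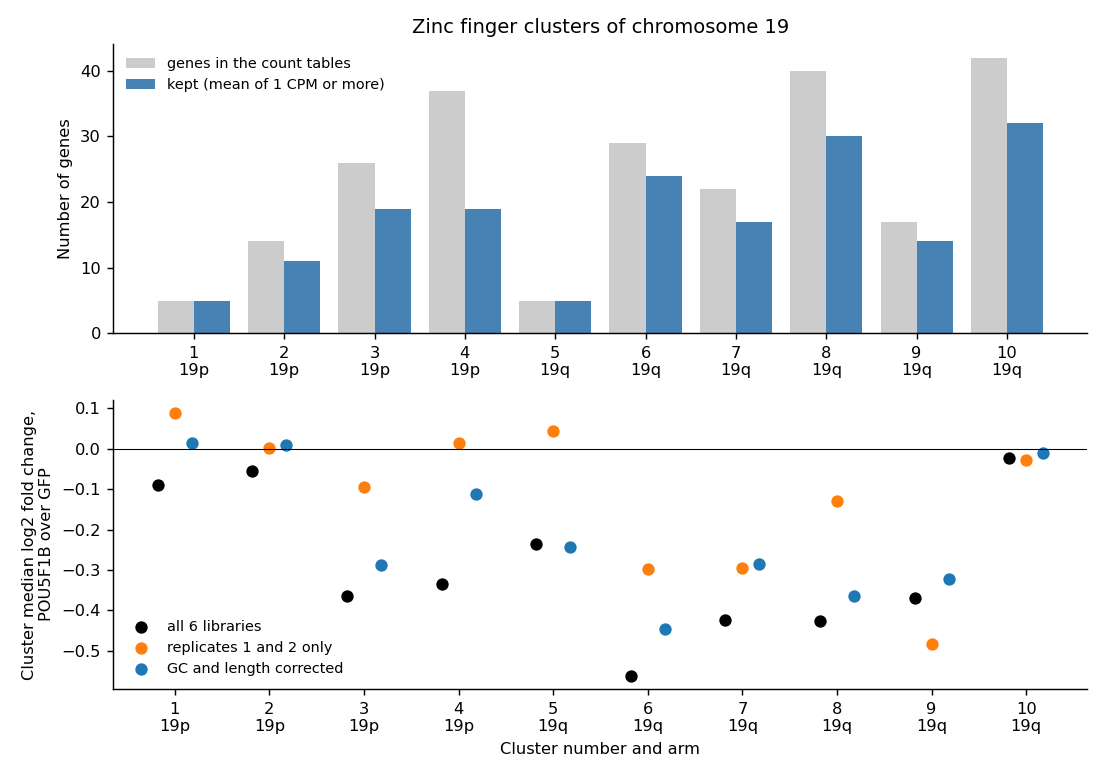
The upper panel plots the number of genes per cluster in the count tables (grey) and of those kept (blue), and the lower panel the median log2 fold change of POU5F1B over GFP in each cluster's kept genes with all 6 libraries (black), with replicates 1 and 2 only (orange) and with a correction for GC content and length (blue). Cluster 4 has the largest gap between the bars, and cluster 6 the lowest median with all 6 libraries (-0.56).

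To ask whether the genes differed between POU5F1B and GFP cells, each was read from a limma voom fit over all 14286 genes. None of the 188 passed the threshold of an adjusted p under 0.05 and a fold change above 2, and neither did any other gene (0.0%). Even POU5F1B, with a log2 fold change of 10.73 ± 2.78 (SE; adjusted p = 0.252, limma voom), did not pass. A gene that did not pass is therefore not shown to be unchanged. The smallest adjusted p of a zinc finger gene was 0.207 (limma voom). At an unadjusted p under 0.05, 18 of the 188 were lower in POU5F1B cells (9.57%, beside 5.82% of all genes) and 2 were higher (beside 6.07%). With edgeR 0 genes of the set passed, and with DESeq2 5 did, all lower, which is 2.66% of the set beside 1.62% of all genes. The count at an unadjusted p under 0.05 moved with single libraries, from 18 lower genes to 11 without GFP replicate 2 and to 8 without POU5F1B replicate 1, and from 2 higher genes to 0 without either of these and to 1 without GFP replicate 1. Without GFP replicate 3, 6 genes passed the threshold, all lower (3.19%, beside 4.16% of all genes). With sample quality weights 10 did, all lower (5.32%, beside 7.54% of all genes).

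The values leaned low as a group. The median log2 fold change of the 188 was -0.31, beside -0.02 over all tested genes, and 158 of them (84.0%) had a value below 0, beside 53.1% of all genes. In 35 genes (18.6%) all 3 POU5F1B values lay below all 3 GFP values, beside 9.24% of all genes, and in 4 genes (2.13%) they lay above, beside 10.2%. With 3 libraries against 3, the smallest p an exact two-sided permutation test can give is 0.10. By that test such a pattern in a single gene cannot reach a p under 0.05. By the fitted values 10 genes were more than 2-fold lower and 1, ZNF556, more than 2-fold higher. Keeping a gene by its mean over both groups let in 6 genes with a mean below 1 CPM in POU5F1B cells and 2 with a mean below 1 CPM in GFP cells.

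**Figure D2:**
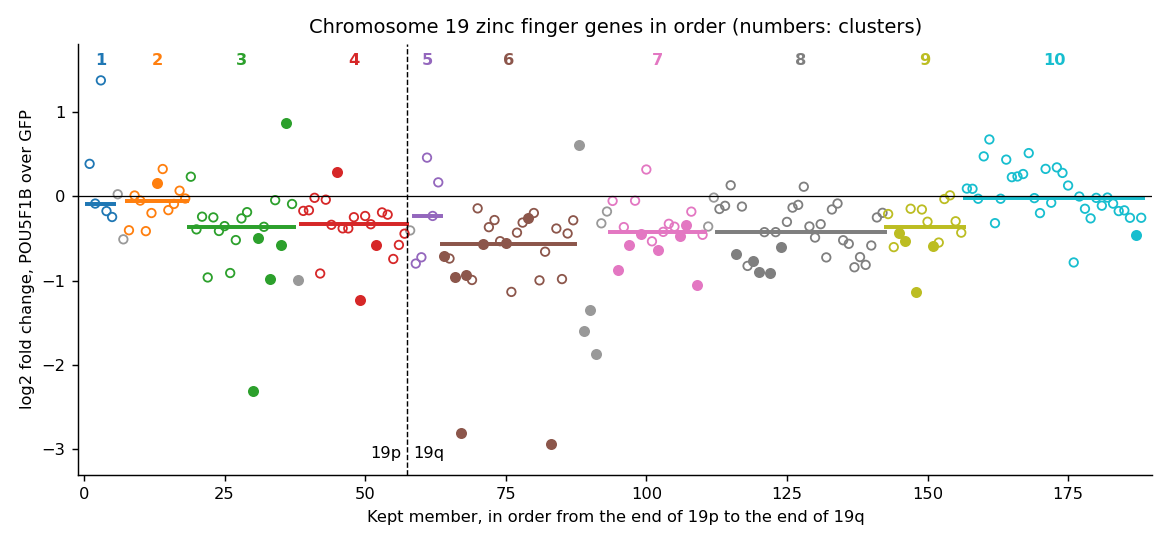
Each circle is 1 of the 188 kept genes in order along the chromosome, with the log2 fold change of POU5F1B over GFP (limma voom) on the y axis, colours and numbers for clusters 1 to 10 (grey outside clusters), bars for cluster medians and a dashed line between 19p and 19q; filled circles are the 39 genes whose groups did not overlap. Most circles lie below 0, the lowest at -2.94, and cluster 10 is spread about 0.

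The low values were unevenly spread over the libraries. Relative to each gene's own mean, on the scale of log2(CPM + 0.5), the set's median was -0.08, 0.18 and 0.32 in GFP replicates 1 to 3 and -0.15, 0.00 and -0.27 in POU5F1B replicates 1 to 3. GFP replicate 1 thus lay below POU5F1B replicate 2, and the 2 groups overlapped. GFP replicate 3 was the highest library for 102 of the 188 genes (54.3%, beside 34.6% of all genes), and POU5F1B replicate 3 the lowest for 72 (38.3%, beside 12.2% of all genes). With the set cut into 3 equal groups by GC content, the median of the lowest group (below 41.7%) was 0.83 in GFP replicate 3 and -0.46 in POU5F1B replicate 3, while for the highest group (above 44.8%) these were 0.12 and 0.03. With GC content and length corrected, the median log2 fold change of the set was -0.22 and 142 genes lay below 0. Without GFP replicate 3 the median was -0.21, and with replicates 1 and 2 only it was -0.13 with 121 genes below 0.

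**Figure D3:**
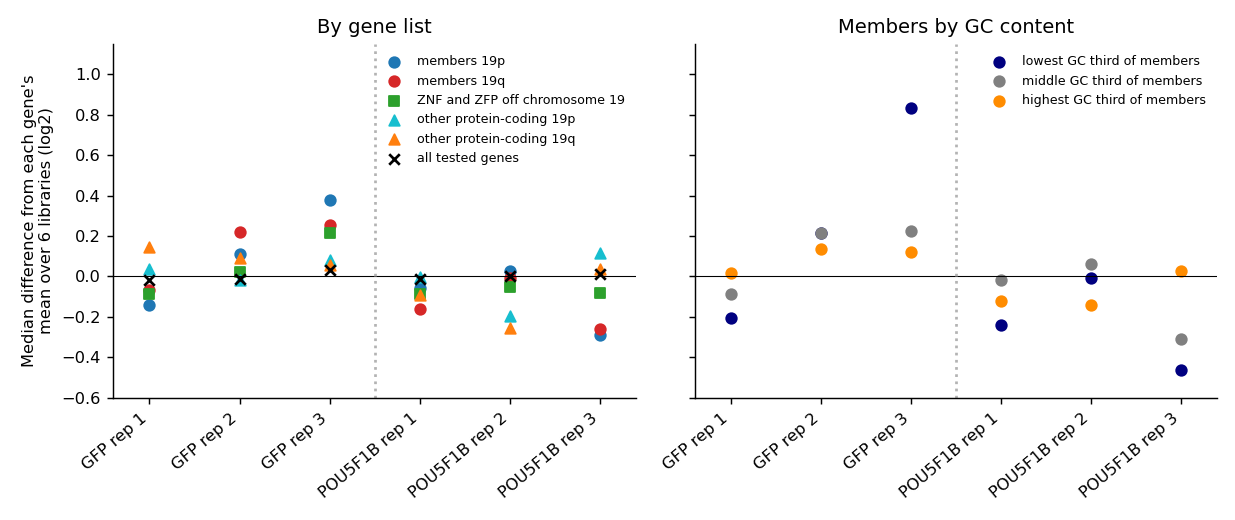
Each point is the median, over the genes of a list, of the difference between a gene's log2(CPM + 0.5) in 1 library and its mean over the 6 libraries, by gene list (left) and for the kept genes in 3 equal groups by GC content (right). GFP replicate 3 is the highest library for the genes of both arms, and its point for the group of lowest GC content (0.83) lies apart from all others.

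The comparison of non-overlapping genes depended on the replicate 3 libraries. With replicates 1 and 2 only, 60 of the 188 genes (31.9%) had both POU5F1B values below both GFP values, beside 32.5% of all genes, so the excess of lower genes over all genes was not there. The matching count of higher genes was 20 (10.6%), beside 33.8% of all genes. Without GFP replicate 3 alone, 51 genes (27.1%) were lower and 9 (4.79%) higher, beside 23.9% and 24.9% of all genes. Without POU5F1B replicate 3 alone, 43 genes (22.9%) were lower and 9 (4.79%) higher, beside 17.7% and 16.9% of all genes, so there the share of lower genes was above that of all genes. In each of these settings a smaller share of the set than of all genes had higher POU5F1B values.

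By arm, the median log2 fold change was -0.25 on 19p and -0.32 on 19q. Without GFP replicate 3 these were -0.042 and -0.24, and with replicates 1 and 2 only -0.050 and -0.19, so the value of 19p rested largely on that library. Non-overlapping lower genes made up 12.3% of 19p genes (7 of 57) and 21.4% of 19q genes (28 of 131). The neighbours on each arm did not share one value: the other 357 protein-coding genes of 19p had a median of -0.06 and 4.76% non-overlapping lower genes, whereas the other 360 of 19q had a median of -0.21 and 22.5%. On 19q, then, the share of non-overlapping lower genes was close to that of the neighbours. ZNF and ZFP genes on other chromosomes (229 tested) had a median of -0.14, with 161 below 0 and 9.17% non-overlapping lower. No test was made of the set as a whole, since its members share sequence, chromosome and libraries.

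Among clusters, the lowest median was that of cluster 6 (36.7 to 38.3 Mb on 19q), where all 24 kept genes had a log2 fold change below 0, from -2.94 to -0.15, with a median of -0.56. In 8 of these 24 all POU5F1B values lay below all GFP values, beside 18.6% of the set and 9.24% of all genes. No other protein-coding gene at a mean of 1 CPM or more lay within its span, so it has no neighbours to compare. GFP replicate 3 was the highest library for 20 of these 24 genes and POU5F1B replicate 3 the lowest for 13. The median of cluster 6 was -0.30 with replicates 1 and 2 only and -0.45 with GC content and length corrected. Clusters 7 (44 to 45 Mb) and 8 (52.1 to 54.1 Mb) had medians of -0.42 and -0.43, with 16 of 17 and 28 of 30 genes below 0. In cluster 8 the median with replicates 1 and 2 only was -0.13. The other protein-coding genes tested within the span of cluster 7 had a median of -0.22, with 7 of 8 below 0. Those within the span of cluster 8 had a median of -0.39, with 3 of 4 below 0.

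Cluster 9 (56.0 to 57.2 Mb) differed from the rest in its base composition, with a median GC content of 62.7% against 39.0% to 46.2% in the other clusters. Its median log2 fold change was -0.37, with 13 of 14 genes below 0, and it was lower with replicates 1 and 2 only (-0.48). In this cluster GFP replicate 3 was the highest library for 5 of 14 genes. The other 8 protein-coding genes tested within its span had a median of -0.23, with 7 of the 8 below 0.

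Cluster 10 (57.7 to 59.0 Mb, at the end of 19q) stood near 0. Its 32 kept genes had a median of -0.02, with 13 above and 19 below 0 and 1 non-overlapping lower gene, and the median was -0.03 with replicates 1 and 2 only and -0.01 with GC content and length corrected. On 19p the medians were -0.09 in cluster 1 (2.8 to 2.9 Mb), -0.05 in cluster 2 (8.6 to 9.9 Mb), -0.36 in cluster 3 (11.6 to 12.8 Mb) and -0.33 in cluster 4. Clusters 1, 2 and 4 were at or above 0 with replicates 1 and 2 only (0.09, 0.00 and 0.01). Cluster 5 (35.2 to 35.5 Mb), with 5 genes, went from -0.24 to 0.04. The other protein-coding genes tested within the span of cluster 10 had a median of -0.18, with 4 of 5 below 0. Within cluster 2 such genes had a median of -0.91, with 2 of 3 below 0. Within cluster 3 it was -0.145, with 3 of 3 below 0. The neighbours' medians thus did not always lie near those of the clusters. Clusters 1, 4 and 5 held no other protein-coding gene at a mean of 1 CPM or more.

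The named genes of the lower side were the 6 with the smallest p among the non-overlapping ones. ZNF136 (ENSG00000196646; chr19:12273879-12300686, cluster 3), a KRAB protein with 13 fingers, was at 16.3, 26.4 and 11.5 CPM in the GFP libraries and at 4.56, 4.73 and 1.91 CPM in the POU5F1B libraries. Every POU5F1B value lay well below the lowest GFP value, and the mean was 18.1 ± 7.63 CPM in GFP and 3.73 ± 1.58 CPM in POU5F1B (SD, n = 3). The fitted log2 fold change was -2.31 ± 0.47 (SE; adjusted p = 0.207, limma voom), and it passed with DESeq2 and, in limma voom, without GFP replicate 3 (-2.60, adjusted p = 0.0107). In ZNF136 GFP replicate 3 was the lowest of the GFP libraries.

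ZNF780A (ENSG00000197782; chr19:40575059-40596850), a KRAB protein with 17 fingers, was at 15.2, 23.0 and 37.9 CPM in the GFP libraries and at 6.92, 7.51 and 5.08 CPM in the POU5F1B libraries. Its log2 fold change was -1.87 ± 0.40 (SE; adjusted p = 0.209, limma voom) and -1.56 without GFP replicate 3 (adjusted p = 0.0133, limma voom). It lies outside the clusters in a small run with ZNF780B and ZNF546, which are described here after their values were seen. ZNF780B (chr19:40534167-40562138) was at 8.68, 15.8 and 20.3 CPM against 5.58, 7.14 and 4.25 CPM, and ZNF546 (chr19:40490041-40526945) at 2.02, 2.67 and 6.61 CPM against 0.708, 1.85 and 0.916 CPM. In all 3 neighbours the groups did not overlap and GFP replicate 3 was highest, with log2 fold changes of -1.34 ± 0.39 and -1.60 ± 0.59 (SE) for the latter pair (adjusted p = 0.290 and 0.357, limma voom). Exons of ZNF780A and ZNF780B overlap those of other genes, so some of their reads may have been left out or shared.

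ZFP14 and ZFP82 are neighbours in cluster 6 (chr19:36825355-36870103 and chr19:36874022-36909546), both KRAB proteins, with 13 and 12 fingers. ZFP14 (ENSG00000142065) was at 5.14, 5.87 and 6.09 CPM in the GFP libraries and at 2.99, 2.87 and 2.83 CPM in the POU5F1B libraries. The values were tight within both groups, the means 5.70 ± 0.498 and 2.90 ± 0.0817 CPM (SD, n = 3), and the log2 fold change was -0.96 ± 0.22 (SE; adjusted p = 0.220, limma voom). Over the alternatives it ran from -1.03 to -0.71. ZFP82 (ENSG00000181007) was at 1.68, 3.35 and 6.18 CPM against 0.629, 0.371 and 0.333 CPM, on only 8, 4 and 4 counts in the POU5F1B libraries. The fitted log2 fold change was -2.80 ± 0.64 (SE; adjusted p = 0.221, limma voom), and it was kept through its GFP values. Without GFP replicate 3 it was -2.38 (adjusted p = 0.0245, limma voom).

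ZNF428 (ENSG00000131116; chr19:44111376-44123781, cluster 7), a short protein with 1 finger and no KRAB box, was at 34.8, 33.4 and 24.6 CPM in the GFP libraries and at 15.4, 14.1 and 21.5 CPM in the POU5F1B libraries. Here the replicate 3 libraries lay closest to each other, and replicates 1 and 2 farthest apart. Its log2 fold change was -0.87 ± 0.23 (SE; adjusted p = 0.256, limma voom), and -1.03 without GFP replicate 3 (adjusted p = 0.0154, limma voom). ZNF580 (ENSG00000213015; chr19:56146382-56154836, cluster 9), with 3 fingers, was at 5.31, 5.56 and 4.44 CPM against 1.73, 1.95 and 3.58 CPM, with its replicate 3 libraries again closest to each other. The fitted log2 fold change was -1.13 ± 0.32 (SE; adjusted p = 0.288, limma voom), and -1.24 without GFP replicate 3 (adjusted p = 0.0484, limma voom). ZNF580 shares exons with other genes on its strand, ZNF581 starts within its span, and ZNF581 itself was at 15.3, 16.4 and 19.3 CPM against 13.6, 13.6 and 18.6 CPM.

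The gene with the lowest fold change of all, ZNF540 (chr19:38042308-38105080, cluster 6), falls outside the naming rule. It was at 1.77, 1.45 and 10.6 CPM in the GFP libraries and at 0.236, 0.556 and 0.333 CPM in the POU5F1B libraries, so the GFP mean rests largely on replicate 3. Its log2 fold change was -2.94 ± 1.01 (SE; adjusted p = 0.346, limma voom). Over all 35 non-overlapping lower genes the log2 fold change ran from -2.94 to -0.26, with a median of -0.71, and GFP replicate 3 was the highest library in 22 of them.

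**Figure D4:**
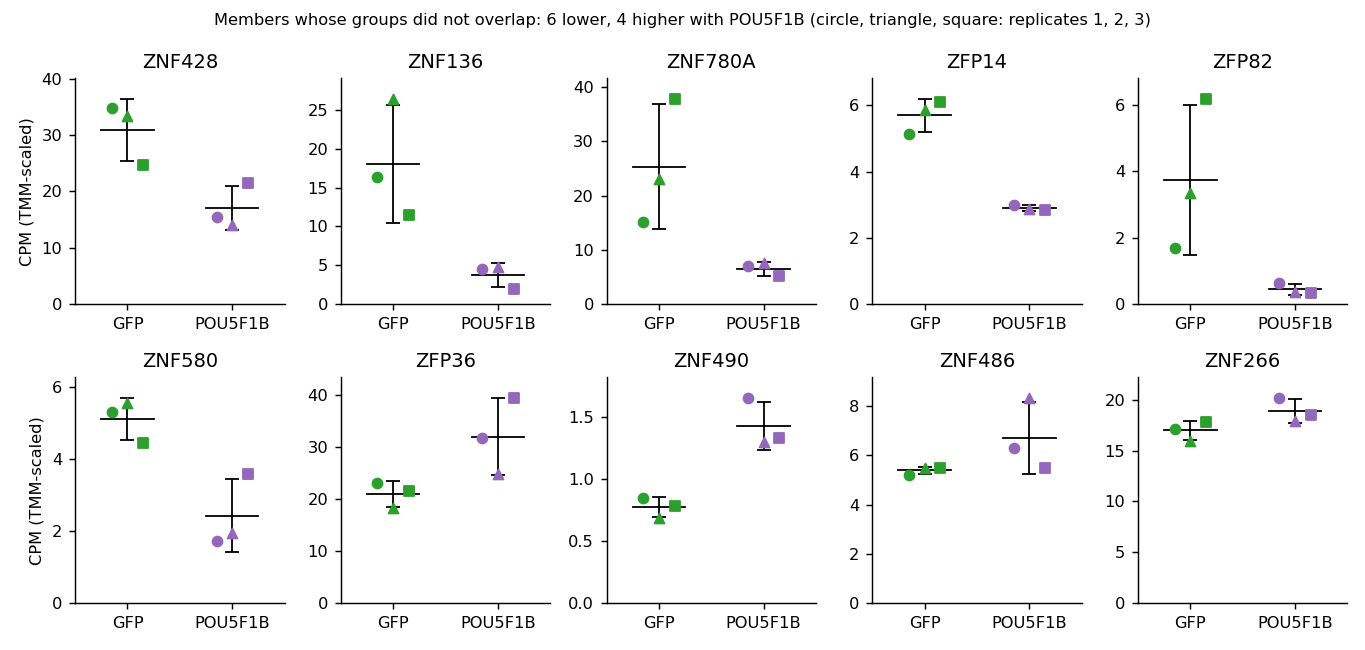
CPM on TMM-scaled library sizes in the 3 GFP (green) and 3 POU5F1B (purple) libraries for the 6 named genes of the lower side and the 4 non-overlapping higher genes; circles, triangles and squares are replicates 1, 2 and 3, and bars are mean ± SD. The groups lie far apart for ZNF136 and ZFP14, and all but touch for ZNF486 and ZNF266.

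On the higher side only 4 genes did not overlap. ZFP36, the RNA-binding protein, was at 23.0, 18.3 and 21.5 CPM in the GFP libraries and at 31.8, 24.7 and 39.4 CPM in the POU5F1B libraries, with a log2 fold change of 0.60 ± 0.22 (SE; adjusted p = 0.353, limma voom). ZNF490 (cluster 3) was at 0.842, 0.686 and 0.783 CPM against 1.65, 1.30 and 1.33 CPM, on 9 or 10 counts in each GFP library, with a log2 fold change of 0.86 ± 0.31 (SE; adjusted p = 0.353, limma voom), and was kept through its POU5F1B values. For ZNF266 (cluster 2) the change was 0.16 ± 0.15 and for ZNF486 (cluster 4) it was 0.28 ± 0.23 (log2, SE; adjusted p = 0.711 and 0.664, limma voom). The highest GFP and the lowest POU5F1B value of ZNF486 were both 5.49 CPM, closer than 1 read, and the values of ZNF266 were 17.2, 16 and 17.8 CPM against 20.2, 18 and 18.6 CPM. ZFP36 and ZNF490 were the 2 higher genes with an unadjusted p under 0.05, so ZNF490 was the only one of these with C2H2 fingers.

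With replicates 1 and 2 only, 8 genes of the set passed the threshold. Lower were ZNF428, ZNF136, ZNF780A, ZNF580, ZNF333, ZFP82 and ZNF540 (3.72% of the set, beside 5.15% of all genes), and higher was ZNF556 (0.532%, beside 3.21%). The share of lower genes past the threshold was thus below that of all genes. In each of the 7 lower genes the groups also did not overlap with 6 libraries, beside 280 of the 736 lower genes past the threshold over all genes (38.0%). This is a description only, since GFP replicate 3 had a part in which genes were kept: ZNF540 had a mean of 0.868 CPM over the other 5 libraries and was kept only through it. ZNF333 (chr19:14800613-14844558), named for this count, was at 6.07, 7.47 and 8.96 CPM in the GFP libraries against 2.60, 3.61 and 5.41 CPM. ZNF556 (chr19:2867333-2883443, cluster 1) was at 0.842, 1.07 and 0.261 CPM against 2.99, 1.76 and 0.916 CPM, so that POU5F1B replicate 3 lay inside the GFP range.

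A group of 12 genes was chosen for roles known beforehand, and 9 of them were kept. ZNF91 and ZNF93, KRAB repressors of the SVA and LINE-1 retrotransposons, were low: ZNF91 was at 2.70, 3.12 and 5.83 CPM in the GFP libraries and 2.36, 3.24 and 1.33 CPM in the POU5F1B libraries, with a log2 fold change of -0.75 ± 0.44 (SE; adjusted p = 0.552, limma voom). ZNF93 had means of 1.32 ± 0.451 and 1.31 ± 0.553 CPM (SD, n = 3), and its log2 fold change of -0.04 ± 0.45 (SE) changed sign in 8 alternatives. In both genes GFP replicate 3 was the highest GFP library and POU5F1B replicate 3 the lowest POU5F1B library.

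ZNF274, which marks the 3′ ends of other zinc finger genes for SETDB1, was at 28.6, 30.9 and 23.9 CPM against 27.1, 29.0 and 21.5 CPM, a log2 fold change of -0.11 ± 0.18 (SE; adjusted p = 0.841, limma voom). The imprinted gene ZNF331 and ZNF350 (ZBRK1, a partner of BRCA1) had values of -0.20 ± 0.30 and -0.12 ± 0.25, and overlapped between groups. All 3 changed sign when 1 library was left out. ZNF420 (Apak, a regulator of p53) had -1.14 ± 0.56 (SE; adjusted p = 0.475, limma voom), from 4.80, 6.78 and 16.9 CPM against 4.48, 5.01 and 2.25 CPM, a difference carried by both replicate 3 libraries. ZNF224, a repressor known from the aldolase A gene, had -0.64 ± 0.31 (SE; adjusted p = 0.471, limma voom), from 7.84, 10.4 and 16.5 CPM against 7.16, 7.60 and 6.49 CPM, and its groups did not overlap. ZNF675, known to bind TRAF6, had -0.58 ± 0.46 (SE; adjusted p = 0.657, limma voom) and 0.09 with replicates 1 and 2 only. ZNF382, ZNF568 and ZNF114 were not kept, with means of at most 0.138, 0.349 and 0.852 CPM in either group.

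The gene with the highest level per kb in each cluster shows how the clusters' leading genes behaved. The genes were ZNF57, ZNF317, ZNF627, ZNF714, ZNF302, ZNF146, ZNF428, ZNF761, ZNF581 and ZNF587 (clusters 1 to 10). Each had a log2 fold change below 0, from -0.87 in ZNF428 to -0.01 in ZNF587, as had 84.0% of the set. Without GFP replicate 3, ZNF57 (0.23), ZNF317 (0.027), ZNF146 (0.060) and ZNF587 (0.081) lay above 0. In 9 of the 10, all but ZNF428, the groups overlapped and GFP replicate 3 was the highest library. ZNF302 was at 16.1, 19 and 53.3 CPM against 13.4, 17.2 and 13.2 CPM. The log2 fold change of ZNF302 was -0.80 ± 0.48 (SE; adjusted p = 0.552, limma voom) and -0.30 without GFP replicate 3. ZNF587, whose coding sequence is 99.1% identical to that of ZNF417 so that reads could be lost or shared, was at 30.8, 31.9 and 38.7 CPM against 30.6, 31.6 and 38.7 CPM.

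Protein features were read from the coding sequences of 250 of the 252 genes. They held 0 to 36 fingers with a median of 12, and ZNF208 held the most. A KRAB box was found in 197 genes. Genes with a KRAB box were kept less often (71.6%, against 86.8% of the 53 without) and had a lower median level among kept genes (1.14 against 2.01 CPM per kb). Their median log2 fold changes were -0.32 and -0.25. By number of fingers, the 53 kept genes with 15 or more had a median of -0.43, with 52 below 0, the 84 with 10 to 14 had -0.25, the 41 with 5 to 9 had -0.18 and the 9 with at most 4 had -0.41. The order did not follow the number of fingers. These groups also differ in cluster and GC content, and no test was made between them. The group of lowest GC content had a median of -0.55 (60 of 63 below 0), and the middle and highest groups each had -0.20.

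The octamer ATGCAAAT, the classic binding motif of POU factors, was searched on both strands of the 300-base promoters. It was found in 12 of 219 promoters of the set (5.48%), beside 1.8% of all promoters. Of these 12 genes, 8 were kept, each with a log2 fold change below 0, as had 84.0% of the set. Their median was -0.37, beside -0.31 for the set, and no test was made of this difference. A match describes letters in this window only, and binding was not measured in these libraries. The paper reports that its chromatin immunoprecipitation found no significant recruitment of POU5F1B to the genome, without showing these data. It also reports that the protein lay mostly in the cytoplasm, enriched in membranes.

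Because KRAB proteins act through TRIM28, 32 genes of its complex and of related heterochromatin pathways were read from the same fit. Of the 31 tested, 0 passed the threshold with limma voom, edgeR or DESeq2, and 0 had an unadjusted p under 0.05. Their median log2 fold change was -0.19, with 21 of the 31 below 0, beside a median of -0.02 and 53.1% below 0 over all tested genes. All POU5F1B values lay below all GFP values in 4 of the 31 and above them in 0, beside 9.24% and 10.2% of all genes. TRIM28, itself at the end of 19q, was at 572, 507 and 548 CPM in the GFP libraries and 476, 411 and 504 CPM in the POU5F1B libraries, which did not overlap, with a log2 fold change of -0.23 ± 0.11 (SE; adjusted p = 0.482, limma voom). SETDB1 overlapped between groups, with -0.24 ± 0.19 (SE; adjusted p = 0.660, limma voom).

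ATF7IP and ATF7IP2, partners of SETDB1, had -0.32 ± 0.17 and -0.43 ± 0.22 (SE; adjusted p = 0.516 and 0.486, limma voom), with non-overlapping groups. The groups of ATF7IP all but touched, with a lowest GFP value of 55.9 CPM and a highest POU5F1B value of 55.8 CPM. TRIM24, a relative of TRIM28, was at 30.8, 34.7 and 82.1 CPM against 22.3, 24.0 and 25.1 CPM, groups that did not overlap either. The fitted log2 fold change of -0.89 ± 0.40 (SE; adjusted p = 0.434, limma voom) was -0.47 without GFP replicate 3. With edgeR and DESeq2 it was -1.05 and -1.04, and without GFP replicates 1 and 2 in turn -1.15 and -1.07.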

How the data were processed

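RNA-seq of 3 GFP and 3 POU5F1B libraries of SW480 cells was analysed, with groups and replicate numbers taken from sample titles. The authors mapped reads to hg19 with HISAT2 and deposited raw whole-number counts per gene from featureCounts, using uniquely mapped reads and an annotation of genes and transposable elements. The strand setting and annotation release are not given in the sources used here, so counts of overlapping genes are uncertain. No deposited column was left unused.

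Symbols, positions, GC content and exon lengths came from a GENCODE annotation mapped to GRCh37. A symbol was found for 87.4% of identifiers, and 2 annotated zinc finger genes of chromosome 19, ZNF8 and ZNF229, had no matching identifier and were not analysed. Low counts were removed by filterByExpr (edgeR 4.0.16), libraries scaled by TMM, and genes tested with voom of limma 3.58.1 in R 4.3.3, all 14286 genes in one fit without a block, with Benjamini-Hochberg adjustment. Alternatives were edgeR quasi-likelihood, DESeq2 1.42.0, sample quality weights, the replicate block, replicates 1 and 2 only, each library left out, no filter beyond 1 count, other scalings, a GC content and length correction (natural splines with 5 degrees of freedom, known for 98.1% of tested genes), other CPM minimums and other cluster gaps. The fit was tested on simulated data. Depth ranged from 10767947 to 12787637 counts per library, and floors of 3 counts cover counting error only.

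C2H2 fingers were counted by the spacing of cysteines and histidines in the translated canonical coding sequence. The KRAB box was a 10-residue motif with at most 3 mismatches.

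The members, lists and naming rule were chosen with earlier results of these data known. Named genes are the 3 per arm and the 1 per cluster with the highest mean CPM per kb, the 6 non-overlapping genes per direction with the smallest p, any gene past the threshold, 12 genes with known roles, TRIM28, SETDB1 and the 3 other cofactors with the smallest p. Others are said to be named after their values were seen, as are ZNF814, ZNF497, ZNF681 and ZNF492 at the CPM limit and ZNF208.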

Additional observations from a re-analysis of the deposited data

How the results depend on the processing

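Over the alternatives, the median log2 fold change of the set, of 19p and of 19q stayed below 0. Each moved by less than the spread of library medians within groups (SD of 0.17, 0.22 and 0.15). This spread includes the replicate 3 libraries, so staying within it does not show that the medians hold without them. With replicates 1 and 2 only they were -0.13, -0.050 and -0.19. With 1 library left out the median of the set ran from -0.43 to -0.21 and that of 19q from -0.45 to -0.24. That of 19p ran from -0.42 to -0.042, the latter without GFP replicate 3. The number of genes past the threshold, 0 with limma voom, was 5 with DESeq2, 10 with sample quality weights and 8 with replicates 1 and 2 only, and from 0 to 6 with 1 library left out. At an unadjusted p under 0.05 there were 18 lower genes with limma voom, 28 with DESeq2, 43 with quality weights and from 8 to 27 with 1 library left out, and 2 higher genes, 1 with DESeq2, 1 among genes of at least 2 CPM and from 0 to 3 with 1 library left out. Non-overlapping genes went from 4 higher and 35 lower to 20 higher and 60 lower with replicates 1 and 2 only, and to 9 higher without either replicate 3 library (43 to 51 lower); these settings, and the replicate block together with the GC content correction, were chosen after seeing the data. The cause was not tested.

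The labels do not say whether the replicate numbers pair the samples. Deviations of same-numbered libraries correlated at 0.28, 0.0585 and 0.146, and 5 of 6 libraries correlated best with their own number, a hint from the data and not the design. With the replicate block, 0 genes of the set passed the threshold and 15 were lower at an unadjusted p under 0.05, with a median of -0.32, and POU5F1B passed (limma voom adjusted p = 0.0275).

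Of the values of named genes, 33 changed sign, none of them in a gene past the threshold in any alternative. With quality weights these were ZNF561 (0.016), ZNF317 (0.049), ZNF93 (0.22), ZNF57 (0.23) and ZNF587 (0.0067). With replicates 1 and 2 only they were ZNF561 (0.0013), ZNF146 (0.18), ZNF93 (0.50), ZNF675 (0.086), ZNF57 (0.28) and ZNF714 (0.014). With GC content and length corrected they were ZNF93 (0.053) and ZNF587 (0.041), with the block as well 0.083 and 0.037, with upper quartile scaling 0.00016 and 0.039, and for ZNF587 also total counts (0.028) and no filter (0.0052). With 1 library left out the ranges were -0.19 to 0.034 for ZNF561, -0.15 to 0.027 for ZNF317, -1.27 to 0.060 for ZNF146, -0.32 to 0.30 for ZNF93, -0.23 to 0.022 for ZNF274, -0.51 to 0.088 for ZNF331, -0.24 to 0.029 for ZNF350, -0.41 to 0.23 for ZNF57 and -0.11 to 0.081 for ZNF587. Low counts limit ZFP82, ZNF490 and ZNF540.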
